A study of Mus musculus with 8 samples.

Results

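The 33 genes described here are the mouse p53 gene Trp53, its inhibitors Mdm2 and Mdm4, and genes reported as p53 targets, taken by gene symbol and sorted by role into arrest, death, repair and other targets. All 33 had a probe on the array (59 probes in all), and 31 passed the filter on dim probes, out of 15097 genes tested. They were compared between 4 samples of CT26-FL3 and 4 samples of CT26, on arrays labelled with 1 dye. CT26 is a colon carcinoma line of Balb/c mice, labelled male, that seldom forms liver metastases. CT26-FL3 was derived from it by selecting, in mice, cells that had passed repeatedly through the liver. The liver lesions were digested to single cells with enzymes, and a short culture served to lose stromal cells before RNA was taken. Neither line was given a drug or an engineered allele according to the labels, both were grown in serum-supplemented DMEM, and the labels used here give no p53 genotype for either. CT26-FL3 is a single selected line, and the samples are not said to be separate cultures, so the p-values below rest on the variation among these samples alone, part or all of which may be technical.

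The p53 protein is a transcription factor that is kept low by Mdm2, a ubiquitin ligase that marks it for degradation and that is itself a p53 target, while Mdm4 blocks its activating domain. After DNA damage or other stress p53 accumulates and switches on genes that stop the cell cycle, start apoptosis, repair DNA or adjust metabolism. Many of these genes also answer to other factors, among them ATF4, CHOP (Ddit3), ATF3, FOXO proteins and EGR1, so that a change in such a gene does not by itself report on p53.

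Levels are given as relative intensity, the probe's intensity in percent of the 75th percentile of all probes on that array, where 100% is that percentile. This percentile lay between 808 and 1151 intensity units. The detection limit of an array, 2.6 times the median standard deviation of its negative control spots, was 1.58 to 2.87% on this scale, and 52.8 to 58.2% of the probes were above it. Relative intensities of different probes cannot be set against each other. Sums over probes, given below for markers, therefore only compare arrays and mostly follow the brightest probes. The correlation across genes was 0.996 to 0.998 between arrays of 1 line and 0.982 to 0.984 between arrays of different lines, and genes are not independent replicates. Of the 10 colon epithelium markers looked at, Epcam, Cdh1, Vil1, Cdx1 and Krt19 were above the limit on none of the 8 arrays. The other 5 (Krt8, Krt18, Krt20, Cdx2 and Lgals4) were measured and rose in CT26-FL3, with a summed relative intensity of 374 to 399% on CT26-FL3 arrays and 179 to 191% on CT26 arrays. Their part in the results below was not tested.

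Differences are log2 differences, CT26-FL3 minus CT26, from limma with Benjamini-Hochberg adjustment over all 15097 genes, and a gene passed where its adjusted p was below 0.05. About as many genes passed as did not: 7472 did (49.5%), of which 3645 were higher (24.1%) and 3827 lower (25.3%) in CT26-FL3. Among the p53 genes tested, 23 of 31 passed. Of these, 17 rose and 6 fell, which is 54.8% and 19.4% of those tested. The p53 genes, the further lists and the markers were chosen with earlier results of these data known. Here and below, shares and medians set beside those of all genes therefore only describe the lists. They do not test whether the p53 pathway differs from other genes. The arrays of the lines did not overlap for 22 of the 31, against 47.4% of all genes. Rises of at least 2-fold were found for 4 of them (Gadd45a, Gdf15, Btg2 and Mdm2), against 3.09% of all genes, and no fall of that size, against 2.41% of all genes. The median difference over the 31 genes was 0.26 (range -0.68 to 2.52), beside a median of -0.0055 over all genes, whose 25th and 75th percentiles were -0.20 and 0.21. In total RNA of a culture, fewer cells of a kind and less RNA per cell cannot be told apart.

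**Figure D1:**
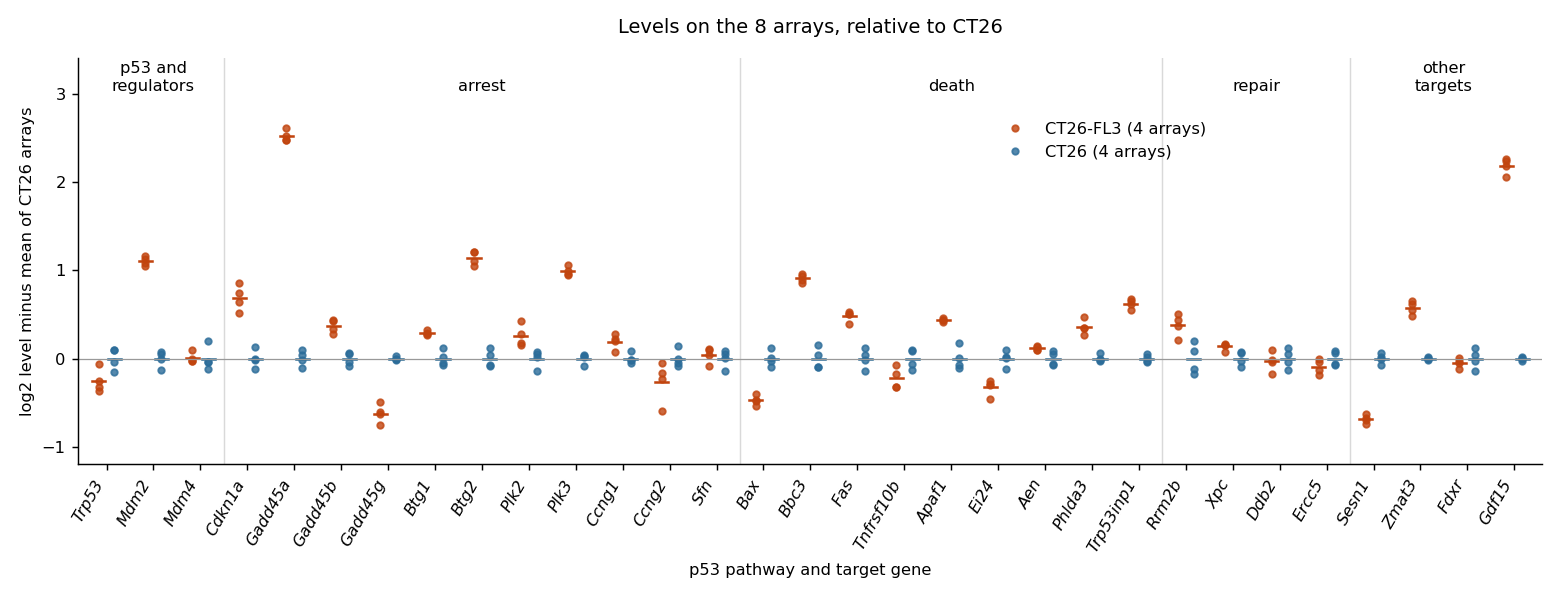
Level of each of the 31 genes tested on every array (log2 relative intensity minus the mean of the 4 CT26 arrays, y axis), by gene and role (x axis). Points are single arrays, CT26-FL3 left of CT26, and short lines are means of 4 arrays. Gadd45a and Gdf15 stood 2.52 and 2.18 above CT26, while Sesn1, Gadd45g and Bax stood below it with no overlap of the lines.

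The promoters in which a p53 response element lay close to the start site, and those of the arrest genes with the largest differences, are shown here because they carry motifs of known transcription factors. RefSeq windows of the GRCm38.p6 build, from 250 bases before to 50 bases after a start, were at hand for 25 of the 33 genes (32 windows). The p53 response element, 2 adjoining decamer motifs with no spacer, was present with at most 1 mismatch in 22 of 32851 windows of that length (0.067%), among them those of Cdkn1a and Ccng1. Allowing 3 mismatches, it was present in 453 windows (1.38%) and in 6 of the 25 genes, the others being Aen (not past the threshold), Bbc3, Sesn1 and Trp53. In the following windows the capitals mark the response element, at positions -51 to -32 of the more upstream Cdkn1a start (chr17:29090729-29091028, plus strand), which lies 2790 bases from the other, and at -195 to -176 for Ccng1 (chr11:40755237-40755536, minus strand).
Cdkn1a: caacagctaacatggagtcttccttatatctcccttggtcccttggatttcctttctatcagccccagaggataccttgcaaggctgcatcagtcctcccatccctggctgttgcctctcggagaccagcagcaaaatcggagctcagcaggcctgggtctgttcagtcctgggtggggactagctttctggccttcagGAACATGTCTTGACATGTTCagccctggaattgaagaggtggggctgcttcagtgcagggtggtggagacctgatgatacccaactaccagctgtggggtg
Ccng1: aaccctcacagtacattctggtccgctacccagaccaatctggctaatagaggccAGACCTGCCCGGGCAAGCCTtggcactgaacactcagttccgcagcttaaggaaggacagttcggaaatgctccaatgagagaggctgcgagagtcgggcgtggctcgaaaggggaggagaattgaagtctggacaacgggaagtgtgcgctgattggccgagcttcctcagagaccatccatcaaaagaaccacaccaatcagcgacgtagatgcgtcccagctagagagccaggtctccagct

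The elements themselves are set side by side here, with capitals for bases that fit the motif and lower case for mismatches. Those of Cdkn1a and Ccng1 have 1 mismatch, and those of Bbc3 (positions -97 to -78), Sesn1 (-173 to -154) and Trp53 (-75 to -56) have 3.
Cdkn1a element: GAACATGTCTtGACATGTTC
Ccng1 element: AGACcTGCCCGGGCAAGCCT
Bbc3 element: ctGCAAGCCCcGACTTGTCC
Sesn1 element: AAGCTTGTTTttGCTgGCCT
Trp53 element: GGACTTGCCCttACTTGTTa
The genes with these elements did not share a direction, since Cdkn1a, Bbc3 and Ccng1 rose and Sesn1 fell. Trp53 fell on its brightest probe, but its second probe gave 0.12 and the call was lost in most alternatives described below. The Ccng1 call was lost in some of them. A match describes the letters and does not show that p53 binds there.

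Other motifs were searched on both strands, each on its own, so that matches may overlap. The CRE sequence TGACGTCA, to which ATF and CREB proteins bind, was in the windows of Btg2 and Plk2 and in 588 of all windows (1.79%). The octamer ATTTGCAT, to which POU factors bind, was in those of Gadd45a and Gadd45g and in 570 of all windows (1.74%). TGATGCAA, a composite sequence to which ATF4 and C/EBP dimers bind, was in those of Gadd45g and Sfn and in 294 of all windows (0.895%). Capitals mark the octamer in Gadd45a, which has it at -97 and in reverse at -70 (chr6:67037358-67037657, minus strand), and TGACGTCA in Btg2, at -166 (chr1:134079106-134079405, minus strand).
Gadd45a: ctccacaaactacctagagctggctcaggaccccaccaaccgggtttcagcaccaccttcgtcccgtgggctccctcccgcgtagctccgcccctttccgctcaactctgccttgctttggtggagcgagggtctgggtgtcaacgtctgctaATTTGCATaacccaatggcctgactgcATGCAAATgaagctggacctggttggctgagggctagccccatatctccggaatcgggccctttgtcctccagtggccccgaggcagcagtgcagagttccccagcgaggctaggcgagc
Btg2: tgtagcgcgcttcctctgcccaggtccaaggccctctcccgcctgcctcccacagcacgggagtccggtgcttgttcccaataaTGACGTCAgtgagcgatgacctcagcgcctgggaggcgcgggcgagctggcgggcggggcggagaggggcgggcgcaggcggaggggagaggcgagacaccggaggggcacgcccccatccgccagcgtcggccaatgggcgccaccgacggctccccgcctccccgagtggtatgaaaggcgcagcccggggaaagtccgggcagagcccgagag

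Of p53 and its inhibitors, Mdm2 rose, Trp53 fell slightly and Mdm4 did not pass. Mdm2 read 503, 517, 548 and 531% on the CT26-FL3 arrays, against 243, 223, 257 and 254% on the CT26 arrays. Every CT26-FL3 array was above every CT26 array, and the rise was 2.15-fold, a log2 difference of 1.10 (SE 0.06, limma adjusted p = 1.08e-06, 4 arrays per line). Its second probe gave 1.02. Trp53 read 241, 231, 223 and 277% on the CT26-FL3 arrays and 309, 259, 309 and 279.7% on the CT26 arrays. Here the lines overlapped, through CT26-FL3 replicate 4 and CT26 replicate 2.

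The Trp53 difference was -0.25 (SE 0.09, limma adjusted p = 0.0381), and this call was lost in 15 of 21 alternatives, more than that of any other gene of the 31. Its probe was printed as 10 spots, and the second Trp53 probe, printed once, gave 0.12 with the opposite sign and did not pass. The call was lost without any 1 of CT26 replicates 1, 3 and 4 or CT26-FL3 replicates 1, 2 and 3 (adjusted p from 0.0564 to 0.0953), and with the mean of the 2 probes the difference was -0.064 (adjusted p = 0.469). Mdm4 read 78.7 to 85.9% on CT26-FL3 arrays and 74.2 to 92.4% on CT26 arrays. On this probe the lines overlapped and the difference was 0.0080 (95% interval -0.16 to 0.17). The other 4 kept Mdm4 probes gave 0.20 to 0.37, 2 of them past the threshold, so the probes of this gene do not give 1 answer, and their mean gave 0.20 (adjusted p = 0.0133).

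Of the 11 genes of cell-cycle arrest, 8 rose (72.7%, against 24.1% of all genes), 1 fell (9.09%, against 25.3%) and 2 did not pass, with a median difference of 0.29. Gadd45a, a stress sensor that binds PCNA and the mitotic kinase CDK1 and activates the p38 and JNK pathways, differed most of all 31 genes. It read 1021, 1054, 1021 and 1125% on the CT26-FL3 arrays and 181, 196, 170.5 and 188% on the CT26 arrays. The lines were far apart on all arrays, with a difference of 2.52 (SE 0.06, n = 4 per line, limma adjusted p = 1.30e-08) or 5.74-fold. Its relatives behaved otherwise. Gadd45b read 331, 345, 367 and 370.4% on CT26-FL3 arrays, against 266, 257, 285 and 284% on CT26 arrays. It rose by 0.37 (SE 0.06, adjusted p = 0.000728) with no overlap. Gadd45g read 1792, 1941, 1770.0 and 1619.8% on CT26-FL3 arrays, against 2722, 2734, 2699 and 2794% on CT26 arrays, and so was the 1 arrest gene that fell, by 0.62 on the log2 scale (SE 0.06, adjusted p = 3.80e-05).

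Cdkn1a encodes p21, the inhibitor of cyclin-dependent kinases through which p53 halts the cycle before S phase. It read 616, 714, 659 and 562% on the CT26-FL3 arrays and 390.3, 433, 393 and 364% on the CT26 arrays. The lowest CT26-FL3 array lay above the highest CT26 array. The difference was 0.69 (SE 0.08, limma adjusted p = 0.000184), a fold of 1.61, on a single probe printed as 10 spots.

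Btg2 and Btg1 are antiproliferative proteins that recruit the CCR4-NOT deadenylase complex. Btg2 read 88.0, 78.6, 88.1 and 82.1% on CT26-FL3 arrays, against 35.9, 36.2, 41.5 and 39.1% on CT26 arrays, and rose by 1.14 (SE 0.06, adjusted p = 1.86e-06). Its other 2 kept probes gave smaller rises down to 0.67. Btg1 read 4043 to 4218% on CT26-FL3 arrays and 3202 to 3648% on CT26 arrays, a rise of 0.29 (adjusted p = 0.00172). The polo-like kinase Plk3, a stress-responsive kinase, read 712, 715, 770.3 and 736% on CT26-FL3 arrays and 349, 374, 378 and 376% on CT26 arrays. This was a rise of 0.99 (SE 0.05, adjusted p = 6.86e-07) or 1.99-fold with a wide gap between the lines. Plk2, its relative with a role in centriole duplication, rose by 0.26 (adjusted p = 0.0212), with 365 to 444% on CT26-FL3 arrays and 299 to 346% on CT26 arrays.

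The remaining arrest genes showed small differences. Ccng1, cyclin G1, which brings the phosphatase PP2A to Mdm2, read 676, 716, 687 and 621% on CT26-FL3 arrays and 627, 585, 569 and 582% on CT26 arrays. CT26-FL3 replicate 4 overlapped with CT26, and the rise was 0.19 (SE 0.06, adjusted p = 0.0219), while a second probe gave 0.53 and passed as well. The calls of Plk2 and Ccng1 depended on single arrays and on the processing. The Plk2 call was lost without CT26 replicate 1 (adjusted p = 0.0538) or CT26-FL3 replicate 4 (adjusted p = 0.0509). The Ccng1 call was lost without any 1 of CT26 replicates 3 and 4 and CT26-FL3 replicates 2 and 3 (adjusted p from 0.0517 to 0.0595). With no filter on dim probes both calls were lost (adjusted p = 0.075 for Plk2 and 0.0822 for Ccng1). That of Plk2 was also lost with arrays centred on their median (adjusted p = 0.0704) and with the title numbers as a replicate block (adjusted p = 0.107). Ccng2, an unusual cyclin that is induced by FOXO factors and accompanies cell-cycle exit, read 418, 611, 561 and 537% on CT26-FL3 arrays and 593 to 697% on CT26 arrays. It did not pass, with a difference of -0.26 (SE 0.11, adjusted p = 0.09). Without CT26-FL3 replicate 2 it passed at -0.33 (adjusted p = 0.0439). Sfn, stratifin, which holds cyclin B and CDK1 in the cytoplasm, did not pass at 0.038 (95% interval -0.11 to 0.19). Of its other 2 kept probes, both dim, 1 passed at 0.16 and 1 did not at 0.26.

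**Figure D2:**
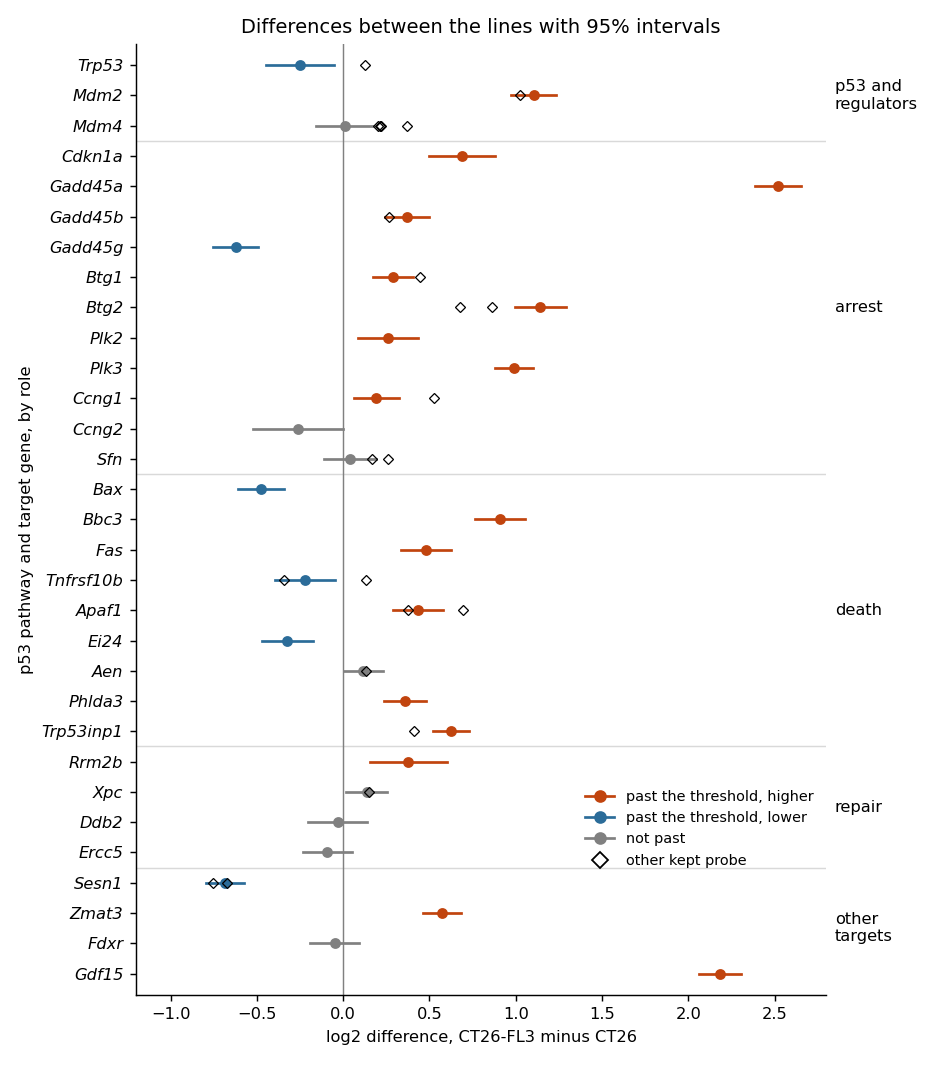
Log2 difference CT26-FL3 minus CT26 (x axis) for each gene by role (y axis), with 95% intervals from limma on 4 arrays per line. Filled points are the brightest kept probe and open diamonds the gene's other kept probes. Trp53 and Tnfrsf10b have probes on both sides of 0, while all 3 Btg2 probes and all 3 Sesn1 probes lie on 1 side.

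Of the 11 genes of cell death, 9 were tested. Among these, 5 rose (55.6%, against 24.1% of all genes), 3 fell (33.3%, against 25.3%) and 1 did not pass, with a median difference of 0.36. Bbc3, which encodes the BH3-only protein PUMA that sets off the mitochondrial pathway, read 702, 721, 741.1 and 755% on CT26-FL3 arrays and 363, 364, 399 and 431% on CT26 arrays. It rose by 0.91 (SE 0.06, n = 4 per line, limma adjusted p = 7.19e-06) or 1.88-fold, with no overlap of the lines. Bax, the pore-forming protein that acts after such BH3-only proteins, went the other way. It read 1057, 1119, 1066 and 1018% on CT26-FL3 arrays and 1484, 1609, 1454 and 1379% on CT26 arrays. It fell by 0.48 on the log2 scale (SE 0.06, adjusted p = 0.000187), and no CT26-FL3 array reached the lowest CT26 array. Apaf1, the scaffold of the apoptosome that activates caspase-9, rose by 0.43 (adjusted p = 0.000562), with 117 to 120.6% on CT26-FL3 arrays and 81.6 to 98.9% on CT26 arrays, and of its other 2 kept probes 1 passed at 0.70 and 1 did not at 0.38.

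The death receptors differed from each other. Fas read 16.7, 16.7, 17.0 and 15.4% on CT26-FL3 arrays and 12.1, 12.8, 10.7 and 11.6% on CT26 arrays. Although dim, it was above the limit on all 8 arrays, did not overlap between the lines and rose by 0.48 (SE 0.06, adjusted p = 0.000325). Tnfrsf10b, the mouse receptor for TRAIL, read 39.0, 39.0, 46.1 and 43.1% on CT26-FL3 arrays and 51.8, 46.7, 44.4 and 51.7% on CT26 arrays. The lines overlapped through CT26-FL3 replicate 3 and CT26 replicate 3. It fell by 0.22 on the log2 scale (SE 0.08, adjusted p = 0.0413), and its other 2 kept probes gave -0.34, which passed, and 0.13, which did not. The Tnfrsf10b call was lost without any 1 of CT26 replicates 1, 2 and 4 or CT26-FL3 replicates 1, 2 and 4 (adjusted p from 0.0539 to 0.104). Processing mattered too, since the call was lost with arrays centred on their median (adjusted p = 0.132) and with no filter on dim probes (adjusted p = 0.127). It was also lost as the mean of the kept probes (adjusted p = 0.0823).

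Trp53inp1, a stress protein that binds p53-modifying kinases and takes part in autophagy, rose by 0.62 (SE 0.05, adjusted p = 8.84e-06). It read 302, 316, 329 and 323% on CT26-FL3 arrays and 203, 214, 200.2 and 209% on CT26 arrays, so that the lines were well separated. Phlda3, which keeps the kinase AKT off the membrane, rose by 0.36 (adjusted p = 0.000676), with 3456 to 4000.3% on CT26-FL3 arrays and 2816 to 2998% on CT26 arrays. Ei24, a membrane protein of the endoplasmic reticulum with a role in autophagy, read 568 to 652% on CT26-FL3 arrays and 715 to 836% on CT26 arrays and fell by 0.32 on the log2 scale (SE 0.06, adjusted p = 0.00313). The nuclease gene Aen did not pass at 0.12 (95% interval 0.0038 to 0.23, adjusted p = 0.0816), although it passed without CT26 replicate 3 (adjusted p = 0.0484). The remaining 2 genes were too dim to test. Pmaip1, which encodes the BH3-only protein NOXA, was above the limit on no CT26-FL3 array and on 1 CT26 array (0.286 to 0.766% on CT26-FL3 arrays and 1.73 to 1.94% on CT26 arrays), and Perp, a desmosomal membrane protein, was above it on no array.

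Of the 4 repair genes 1 rose and 3 did not pass (25% passed, against 49.5% of all genes), with a median difference of 0.052. The lines did not overlap for 50% of them, against 47.4% of all genes. So few genes cannot tell such shares from those of all genes. Rrm2b encodes a subunit of ribonucleotide reductase that supplies nucleotides for repair outside S phase. It read 14.7, 16.5, 17.3 and 18.2% on CT26-FL3 arrays and 11.8, 11.3, 13.6 and 14.7% on CT26 arrays. It rose by 0.38 (limma adjusted p = 0.0119, SE 0.10), and CT26-FL3 replicate 1 lay next to CT26 replicate 4, at almost the same level. Xpc and Ddb2 recognise helix-distorting lesions in nucleotide excision repair, and Ercc5 is the nuclease that cuts on the far side of them. Xpc read 189.8 to 202% on CT26-FL3 arrays and 168 to 189% on CT26 arrays, a difference of 0.14 (95% interval 0.018 to 0.26, adjusted p = 0.0573). Without CT26 replicate 1 it passed (adjusted p = 0.0489), and it also passed as the mean of its 2 kept probes (adjusted p = 0.0171). Ddb2 overlapped between the lines at -0.032 (95% interval -0.20 to 0.14), and so did Ercc5 at -0.091 (95% interval -0.23 to 0.049).

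Of the other targets, Gdf15 and Zmat3 rose, Sesn1 fell and Fdxr did not pass. Gdf15, a secreted cytokine of the TGF-beta family that is induced by many kinds of stress, read 1506, 1533, 1335 and 1455% on CT26-FL3 arrays. On CT26 arrays it read 323, 315, 325 and 319%. The lines were far apart, with a difference of 2.18 (SE 0.05, n = 4 per line, limma adjusted p = 1.45e-08) or 4.54-fold. Zmat3, an RNA-binding protein that acts on splicing and mRNA stability, read 231, 237, 209.9 and 221% on CT26-FL3 arrays and 149.7, 151, 149 and 153% on CT26 arrays. It rose by 0.57 (SE 0.05, adjusted p = 2.11e-05) with no overlap.

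Sesn1, a sestrin that restrains the growth kinase complex mTORC1, had the largest fall of the 31 genes. It read 124.98, 135, 131 and 129% on CT26-FL3 arrays, against 211, 207, 198 and 218% on CT26 arrays. It fell by 0.68 on the log2 scale (SE 0.05, adjusted p = 6.55e-06), and its other 2 kept probes gave -0.67 and -0.76. Its relative Sesn2 rose by 0.92 (SE 0.05, adjusted p = 8.57e-07), with 2836 to 3032% on CT26-FL3 arrays and 1495 to 1613% on CT26 arrays. Fdxr, the mitochondrial ferredoxin reductase, overlapped between the lines at -0.048 (95% interval -0.19 to 0.095).

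Members of 1 family or pathway step were then set against each other through the difference of their log2 differences, which cancels whatever scales a whole array. The 9 pairs were chosen after the values were seen, so the test below only describes them and gives no support. Adjustment over the pairs does not correct for that choice, and the Gadd45 pairs share genes. In all 9 the difference within each array separated the lines completely, so that the two-sided exact permutation test gave p = 0.0286, before and after adjustment over the 9 pairs, which is the smallest p that 4 against 4 arrays allow. Gadd45a differed from Gadd45g by 3.14 (SE 0.09) and from Gadd45b by 2.15 (SE 0.08), and Gadd45b from Gadd45g by 0.99 (SE 0.09). Bbc3 differed from Bax by 1.38 (SE 0.11), Mdm2 from Mdm4 by 1.10 (SE 0.08) and Btg2 from Btg1 by 0.85 (SE 0.05). The pairs Plk3 and Plk2 (0.73, SE 0.05), Fas and Tnfrsf10b (0.70, SE 0.09) and Ccng1 and Ccng2 (0.45, SE 0.13) were closer. These values are on the brightest kept probe of each gene.

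The arrays fell into 2 sets whose file names share a number, replicates 1 and 2 of both lines and replicates 3 and 4 of both lines. All 23 genes that passed had the same sign in both sets. These genes were selected on the arrays of both sets together, so this agreement was largely fixed in advance. It is not a replication and gives no separate support. Within replicates 1 and 2 the threshold was passed by 20 of the 31 genes tested, where 27.9% of all genes passed. Of the 23, Trp53, Plk2 and Ccng1 lost their calls there. Within replicates 3 and 4 it was passed by 17 of the 31, where 27.7% of all genes passed. Lost there were the calls of Trp53, Btg1, Plk2, Ccng1, Tnfrsf10b and Ei24. Gadd45a differed by 2.46 and 2.58 in the 2 sets, Gdf15 by 2.25 and 2.11, Mdm2 by 1.13 and 1.08, Bax by -0.51 and -0.44 and Sesn1 by -0.69 and -0.68.

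**Figure D3:**
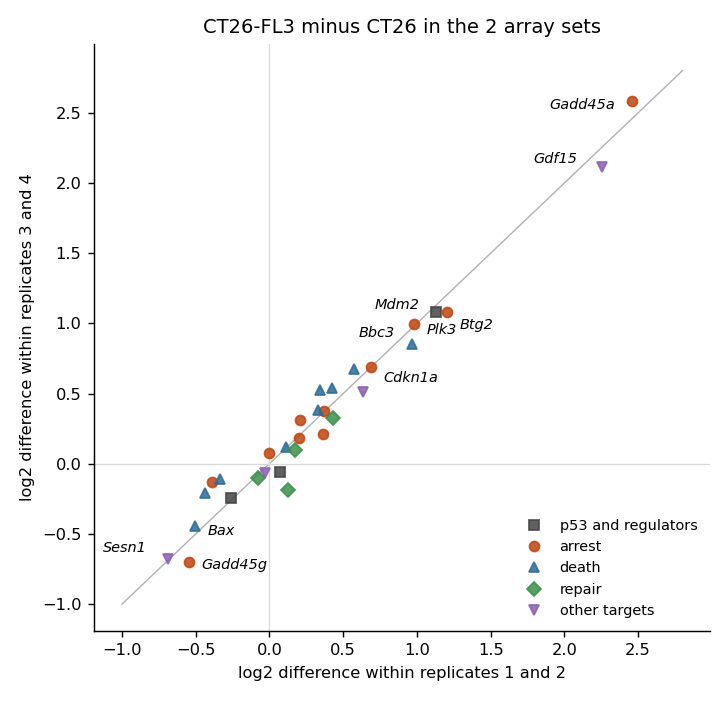
Log2 difference CT26-FL3 minus CT26 within replicates 1 and 2 (x axis) and within replicates 3 and 4 (y axis), 2 arrays per line in each, for the 31 genes tested, with symbols by role. The line marks equal values. Gadd45a (2.46 and 2.58) lies at the upper end. Sesn1 (-0.69 and -0.68) is lowest on the x axis and Gadd45g (-0.55 and -0.70) on the y axis.

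Other genes of the pathway were read from lists of 118 genes, of which 106 were tested. Of these 56 passed, 33 higher and 23 lower, with a median difference of 0.025, and 52.8% passed beside 49.5% of all genes. The 26 upstream kinases, modifiers and relatives of p53 were split, with 7 higher (26.9%, against 24.1% of all genes), 7 lower (26.9%, against 25.3%) and a median of 0.00031. Daxx, an adaptor that works with the deubiquitinase of Mdm2, rose by 0.82 (SE 0.05, limma adjusted p = 3.90e-06), and the checkpoint kinase Chek2 fell by 0.43 on the log2 scale (SE 0.06, adjusted p = 0.000308).

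Trp63, the p53 relative of squamous epithelium, read 0.644, 0.521, 4.79 and 0.856% on CT26-FL3 arrays and 4.54, 4.37, 4.75 and 5.52% on CT26 arrays. Only CT26-FL3 replicate 3 was above the limit in that line, and it lay within the CT26 range. The gene passed the filter on dim probes only through CT26, where it is brighter, and levels below the limit have no measured size, so no fold is given. Its call as lower (adjusted p = 0.0192) was lost within replicates 3 and 4 (adjusted p = 0.297), without CT26-FL3 replicate 1 (adjusted p = 0.0523) or replicate 2 (adjusted p = 0.0504), with the title numbers as a replicate block (adjusted p = 0.0639) and with no filter on dim probes (adjusted p = 0.0638).

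Of 34 further reported targets 11 rose (32.4%, against 24.1% of all genes) and 7 fell (20.6%, against 25.3%), with a median of 0.031. Besides Sesn2, the named ones are Cgref1, a growth regulator with EF-hand domains, which fell by 0.91 on the log2 scale (SE 0.06, adjusted p = 3.11e-06), and Pltp, the phospholipid transfer protein. Pltp was above the limit on 4 CT26 arrays and on no CT26-FL3 array, so it passed the filter on dim probes only through the line where it is brighter. It was at least 2.45-fold lower in CT26-FL3, a bound that takes, for each CT26-FL3 array, the weakest signal above the limit among all its probes. Its limma adjusted p (6.14e-05) rests on CT26-FL3 values below the limit, which have no measured size, so it gives no support. Pltp is counted among the 7 that fell. The cyclins, kinases and other genes of the G1/S step gave 2 higher and 3 lower of 12. Their median was -0.051, and 41.7% passed against 49.5% of all genes. Cyclin D2 (Ccnd2) rose by 0.77 (SE 0.05, adjusted p = 3.62e-06), while cyclin E2 (Ccne2) fell by 1.02 (SE 0.15, adjusted p = 0.000533) and E2f1 by 0.35 (SE 0.08, adjusted p = 0.0076).

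Among 13 genes of the BCL2 family and the caspases 4 rose and 2 fell, with a median of -0.066, and 46.2% passed against 49.5% of all genes. Bcl2, which restrains Bax, read 79.3, 85.0, 82.7 and 84.5% on CT26-FL3 arrays and 135, 131, 131 and 140.5% on CT26 arrays. It thus fell in the same arrays as Bax, by 0.69 on the log2 scale (SE 0.05, adjusted p = 4.33e-06). The BH3-only gene Bmf fell by 0.48 (SE 0.08, adjusted p = 0.000845), though only by 0.12 (adjusted p = 0.125) as the mean of its kept probes, and cytochrome c (Cycs) rose by 0.27 (SE 0.06, adjusted p = 0.00538). Of the 14 partners in nucleotide excision repair 3 rose (21.4%, against 24.1% of all genes) and 4 fell (28.6%, against 25.3%), with a median of -0.026. The single-strand binding subunit Rpa2 fell by 0.37 (SE 0.06, adjusted p = 0.00124) and the lesion-sensing centrin Cetn2 by 0.33 (SE 0.06, adjusted p = 0.00135), while the nuclease subunit Ercc1 rose by 0.34 (SE 0.05, adjusted p = 0.000776).

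Stress-induced transcription factors other than p53, several of which are known to act on the same targets, were higher in 6 of 7 tested, against 24.1% of all genes, with a median of 0.57, and Klf4 did not pass. This list too was chosen with earlier results known, so its share only describes it. Atf3 read 255, 242, 243 and 269.7% on CT26-FL3 arrays and 56.8, 62.2, 61.6 and 60.9% on CT26 arrays, a rise of 2.06 (SE 0.05, adjusted p = 2.13e-08). Ddit3 rose by 1.73 (SE 0.05, adjusted p = 5.76e-08), Egr1 by 1.05 (SE 0.05, adjusted p = 5.57e-07) and Atf4 by 0.48 (SE 0.06, adjusted p = 0.000203). Whether any of these factors, or p53, had a part in the differences of Gadd45a, Gdf15 and the other genes was not tested.

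**Figure D4:**
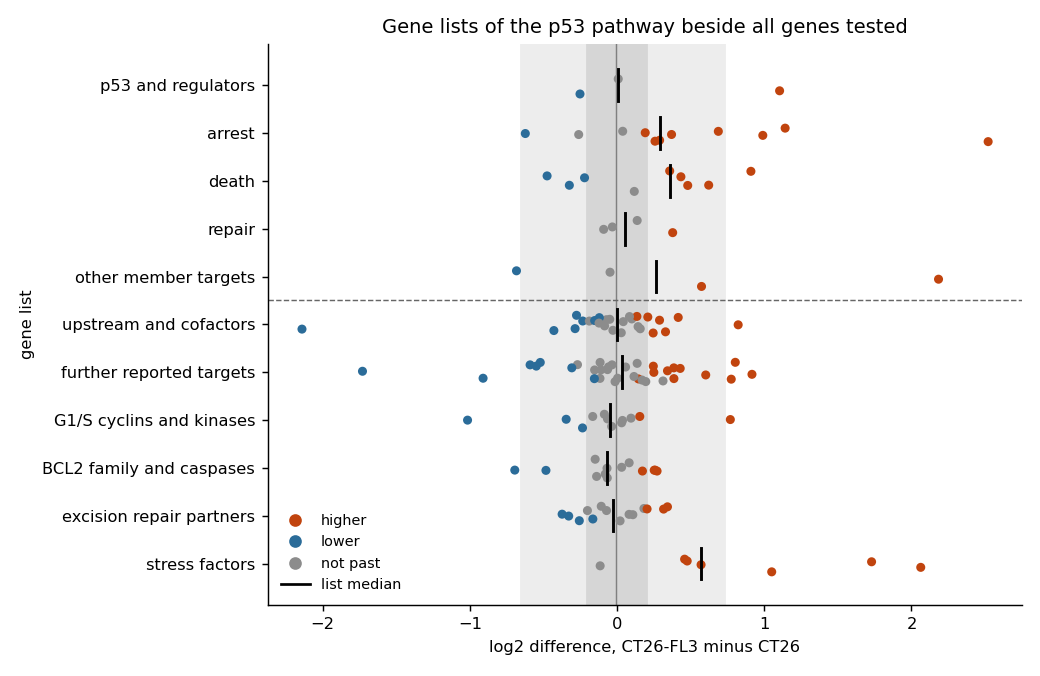
Log2 difference CT26-FL3 minus CT26 (x axis) of each gene tested, by list (y axis), the p53 genes by role above the dashed line and the other lists below it. Each point is 1 gene, coloured where it passed the threshold, black bars are list medians, and the grey bands span the 25th to 75th and the 5th to 95th percentile of all 15097 genes (-0.20 to 0.21 and -0.66 to 0.74). The points of Trp63 and Pltp, farthest left, are fitted values that rest on levels below the limit. The medians of arrest (0.29), death (0.36), other member targets (0.26) and stress factors (0.57) lie to the right of the inner band.

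Markers of other cell types were read beside these results. The hepatocyte gene Alb, the leukocyte gene Ptprc, the macrophage genes Adgre1 and Clec4f and the endothelial genes Pecam1, Cdh5, Kdr and Lyve1 were above the limit on none of the 8 arrays, and so were the fibroblast and stellate cell genes Lum, Des, Rgs5 and Thy1. Sums were taken over the genes of each list that passed the filter on dim probes. For 3 of 7 hepatocyte genes the summed relative intensity was 15.7 to 20.7% on CT26-FL3 arrays and 15.8 to 19.05% on CT26 arrays, and of these 3 Apoa1 was higher in CT26-FL3, by 0.24 (adjusted p = 0.0234) with no overlap. For 5 of 8 macrophage genes it was 85.6 to 91.5% on CT26-FL3 arrays against 67.5 to 77.5% on CT26 arrays, without overlap. Most of this sum was Cd68, with 67.2 to 72.3% on CT26-FL3 arrays and 49.0 to 59.4% on CT26 arrays. Cd68 and Mrc1 were higher, and Csf1r and Tyrobp did not pass. Lyz2 was called lower, but it was above the limit on no CT26-FL3 array. It passed the filter on dim probes only through CT26, so no fold is given. The part of the hepatocyte and macrophage genes in the differences of the p53 genes was not tested. Of 9 fibroblast and stellate genes 5 were tested, and 1 was higher and 3 lower. The higher one was Dcn, the matrix proteoglycan decorin, which read 1748, 1739, 1820.2 and 1711% on CT26-FL3 arrays and 176, 171, 179 and 178% on CT26 arrays, a rise of 3.32 (SE 0.04, adjusted p = 1.12e-09) or 9.96-fold and larger than that of any p53 gene. The lower ones were Col1a1 (-0.76), Pdgfrb (-0.47) and Pdgfra (-0.19), while Col1a2, which did not pass, made up most of the summed intensity of 23166 to 25229% on CT26-FL3 arrays and 21629 to 25983% on CT26 arrays. The part of these genes in the differences of the p53 genes was not tested either. For 1 of 6 endothelial genes the level was 6.65 to 9.31% on CT26-FL3 arrays and 8.21 to 9.02% on CT26 arrays, and for 2 of 6 lymphocyte genes the sum was 12.3 to 17.0% on CT26-FL3 arrays and 11.7 to 15.7% on CT26 arrays.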

How the data were processed

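RNA of 8 samples, marked with Cy3, was measured on 1-colour Agilent arrays. Per array, the authors deposited the intensity of every spot. Its local background had been removed before deposit, since negative controls lay at medians of 2.23 to 7.43 while the background column held 21.1 to 24.4. The submitters' processing notes name Agilent Feature Extraction, with no version in the sources used here. A deposited table of log2 values, centred on each probe, was used as an alternative. The export holds neither the processed signal nor the flags that the design assumed, so this intensity, a limit from 153 negative controls and the mark for failed spots took their place.

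Control spots (1639 of 45018) and failed spots (3 to 76 per array) were dropped. Log2 intensities of a probe's spots were averaged and scaled by the 75th percentile of the array. The precision depends on the number of arrays. Probes had to exceed the limit on at least 4 arrays, and the brightest one represented its gene. Names came from the platform annotation with RefSeq symbols of GRCm38.p6 for 32524 probes, from the accession for 814, from the platform symbol for 140 and from the array's own name for 7651, and 45 probes of several genes had none. The probes of Trp53, Bax, Fdxr and Gdf15 were named by accession or by the array's own name.

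Groups followed the sample names, with 4 arrays of CT26-FL3 and 4 of CT26. Genes were tested two-sided in limma 3.58.1 (R 4.3.3, lmFit and eBayes, no block) with Benjamini-Hochberg adjustment at a threshold of 0.05. Family pairs were tested with exact permutation in scipy 1.17.1. Named were all 33 genes, the most different genes (at most 3) that passed in each further list, and Atf3, Atf4 and Ddit3. The members, the lists and the markers were chosen with earlier results of these data known. Promoter sequences are from RefSeq. Alternatives changed the scaling, offset, filter, probe choice, failed spots, value table, blocks and samples.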

Additional observations from a re-analysis of the deposited data

Results flagged for a closer look

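Within the 4 arrays of a line, 1 array stood apart from the others for 6 of 100 combinations of gene and line that were looked at, by the gap to its nearest neighbour over the whole range of the 4 values, beyond Dixon's critical value for 4 samples. Chance flags about 1 in 20 such groups. The causes were not tested. Plk3 was lowest on CT26 replicate 1 (ratio 0.845), at 349% relative intensity beside 374 to 378% on the other 3 CT26 arrays. Xpc was lowest on CT26-FL3 replicate 4 (ratio 0.837), at 189.8% beside 200.3 to 202%. Pltp was lowest on CT26 replicate 4 (ratio 0.833), at 3.48% beside 5.45 to 5.97%. E2f1 was highest on CT26 replicate 3 (ratio 0.856), at 534% beside 421 to 436%. Bmf was highest on CT26 replicate 4 (ratio 0.851), at 59.0% beside 54.2 to 54.9%. Egr1 was lowest on CT26-FL3 replicate 1 (ratio 0.866), at 2594% beside 2826 to 2864%.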

How the results depend on the processing

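Over 21 alternatives the number of p53 genes past the threshold lay between 17 and 23 (23 as reported), and the number higher between 14 and 19 (17 as reported). Without single arrays these counts were 20 to 22 and 16 to 17. The 6 lower genes became 3 within replicates 3 and 4 and 3 with the title numbers as a replicate block, and were 4 to 5 without single arrays. The median difference lay between 0.19 and 0.32 (0.20 to 0.29 without single arrays). Of the 23 calls, 17 held in every alternative, and those of Trp53, Btg1, Plk2, Ccng1, Tnfrsf10b and Ei24 were each lost in at least 1. No called p53 gene reversed direction in any of them, but the alternatives reuse the arrays on which the genes were called. The count of 56 other pathway genes was 31 within replicates 1 and 2, 33 within replicates 3 and 4, and 47 to 52 without single arrays, where fewer arrays enter each fit.

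Deviations from the line mean of arrays with the same sample-name number correlated at 0.0063 to 0.165 (mean 0.10), above 0.1 for 3 of the 4 pairs. All pairs of the same array set, which include these, ranged from 0.0063 to 0.23. The sample-name numbers thus paired the samples no more closely than the array set did. Between the lines, arrays of the same array set correlated at a mean of 0.126. The mean for different sets, -0.126, mirrors it because deviations from a line's mean cancel out within the line, so it is no separate observation. With the sample-name numbers as a replicate block 21 p53 genes passed (17 higher, 4 lower) with a median of 0.26, and 49 other pathway genes. The title numbers, which run differently, left 19 and 38. With the array set as a block 23 p53 genes and 56 other genes passed. Normexp background correction was not run, because the intensity was already background-subtracted. Depth is limited by signal over background for Pmaip1, Perp, Pltp and Trp63, and for the marker Lyz2. Trp63 had no value where all 8 arrays had to exceed the limit.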
